A study of Mus musculus with 24 samples.

Results

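The replication-dependent histone genes encode the core histones H2A, H2B, H3 and H4 that package newly copied DNA. The mouse genome holds them as many near-identical, mostly intronless copies, crowded into a few clusters. The genes described here are the 58 whose symbol is H2ac, H2bc, H3c or H4c followed by a number: 18 H2A, 16 H2B, 12 H3 and 12 H4 genes, 1 of them (H2ac14) annotated as a pseudogene. They lie in 3 clusters (build mm10): chr13:21715711-22043658 with 22 genes, chr13:23531044-23934913 with 26, and chr3:96219885-96270192 with 10. For each gene, the end with more CpGs was given a window of 1000 bp on either side, and 53 of the 58 windows held at least 10 methylation calls in every library, among 20321 gene ends tested in all.

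Methylation was read by oxidative bisulfite sequencing of whole genomes, in which oxidised 5-hydroxymethylcytosine is not read as methylated. The cells were mouse induced pluripotent stem (iPS) cells grown over feeder cells. The knock-in (KI) clones N5 and N9 carry a doxycycline-inducible miR-203, a microRNA, and wild-type (WT) cells were sampled at the same stages, so that each stage has 2 KI libraries, 1 per clone, and 1 WT library. The stages were t=0, before doxycycline, then day 10, which was 5 days after the end of a pulse of 5 days, then day 25, which was 20 days after it, and embryoid bodies (EB), aggregates in which the cells differentiate. The design puts the EB at day 32, after 7 days of aggregation, and the label of the WT EB gives 10 days. Each KI value comes from a single clone. The WT labels name doxycycline for the same stages. The 24 deposited samples were the 2 lanes of each of 12 libraries.

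Most histone genes of this group are transcribed in S phase of the cell cycle under the control of NPAT, and their mRNAs end in a stem-loop instead of a poly(A) tail. Their promoters are commonly free of DNA methylation in dividing cells. The divergent pair H2ac1 and H2bc1 encodes TH2A and TH2B, the testis forms of H2A and H2B, which are made in germ cells and, in the mouse, are also found in the oocyte and early embryo.

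The promoters of the germline pair are shown first because these ends had the highest methylation levels of the tested members and the largest differences between day 25 and EB. They are RefSeq sequences (GRCm38.p6), 250 bases before to 50 bases after the gene start, written 5′ to 3′ on the strand of the gene, with each CpG in capitals. H2ac1 lies on the plus strand, chr13:23934187-23934486, and H2bc1 on the minus strand, chr13:23934107-23934406, so most of the H2bc1 promoter is the H2ac1 promoter read on the other strand. The starts of the pair are 281 bp apart. The promoters of H2ac6 (minus strand, chr13:23683910-23684209) and H4c3 (minus strand, chr13:23698409-23698708) stand beside them as examples of cluster genes whose windows were called changed while their promoters held few or no methylated calls.
H2ac1: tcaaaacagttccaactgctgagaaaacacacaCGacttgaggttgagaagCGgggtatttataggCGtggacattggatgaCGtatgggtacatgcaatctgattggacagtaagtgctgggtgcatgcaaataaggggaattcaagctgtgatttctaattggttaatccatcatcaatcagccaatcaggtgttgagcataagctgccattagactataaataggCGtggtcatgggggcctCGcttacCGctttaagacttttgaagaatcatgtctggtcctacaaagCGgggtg
H2bc1: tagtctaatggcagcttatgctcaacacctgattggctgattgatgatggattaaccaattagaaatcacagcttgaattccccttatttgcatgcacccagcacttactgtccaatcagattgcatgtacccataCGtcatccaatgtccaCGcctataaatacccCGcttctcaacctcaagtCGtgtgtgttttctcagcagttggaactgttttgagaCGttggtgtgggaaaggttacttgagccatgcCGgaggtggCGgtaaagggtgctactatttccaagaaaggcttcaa
H2ac6: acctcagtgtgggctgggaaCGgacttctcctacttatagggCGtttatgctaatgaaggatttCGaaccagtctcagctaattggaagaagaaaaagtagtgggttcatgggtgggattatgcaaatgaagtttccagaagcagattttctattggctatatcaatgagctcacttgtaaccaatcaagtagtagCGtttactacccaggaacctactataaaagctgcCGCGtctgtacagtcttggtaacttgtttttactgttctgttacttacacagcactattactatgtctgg
H4c3: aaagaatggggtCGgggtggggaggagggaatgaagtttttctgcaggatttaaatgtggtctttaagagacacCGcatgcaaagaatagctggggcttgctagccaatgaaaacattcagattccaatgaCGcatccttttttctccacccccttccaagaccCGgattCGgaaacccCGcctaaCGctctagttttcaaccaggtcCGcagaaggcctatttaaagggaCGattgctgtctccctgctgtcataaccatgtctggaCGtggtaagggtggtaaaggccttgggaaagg

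RefSeq promoters were at hand for 52 of the 58 genes. They held a median of 10 CpGs (3 to 41), against 14 over 17274 promoters of all genes, so the CpG-dense part of these windows is mostly the gene itself. The letters CCAAT, the CCAAT box, on either strand, stood in 44 of the 52 (84.6%), against 39.4% of all promoters, and in all 17 H2A, 14 H2B and 10 H3 promoters but 3 of 11 H4 promoters. TATAAA, the TATA box, was in 30 (57.7%), against 13.4% of all promoters, and ATTTGCAT, the octamer of H2B promoters, in 12 (23.1%), against 1.73%. All 12 octamer promoters belonged to H2A or H2B genes, which as divergent pairs often share the same DNA. None of these motifs contains another. H2ac1 and H2bc1 hold all 3 of them.

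Library depth ranged from 102896335 to 191210205 calls at CpGs (mean coverage 4.70 to 8.74), highest in KI N5 at day 25 and lowest in WT at day 25. Genome-wide methylation was 48.4% in KI N5 and 47.7% in KI N9 at day 25, against 61.1% in WT at day 25, and between 60.04% and 71.8% in the other libraries. Clone N5 at t=0, day 25 and EB (3 libraries) was read on another flow cell than the other 9, so KI N9 and WT share a flow cell at every stage. As a check of the cell type label, the end of Nanog, a pluripotency factor, was at 10.8% and 10.0% in KI N5 and N9 and 12.5% in WT at t=0, that of Dppa3 at 14.4%, 16.5% and 24.0%, and that of Pou5f1 at 28.6%, 31.2% and 15.5%. From day 25 to EB all 3 ends fell in WT and rose in both clones. Nanog went from 12.2% to 2.43% in WT, from 3.04% to 8.60% in KI N5 and from 0.785% to 14.6% in KI N9. In WT, Dppa3 went from 22.05% to 13.3% and Pou5f1 from 18.9% to 7.69%. The EB of KI and WT thus did not behave alike in this check, and the cause was not tested. Methylation alone does not give the share of feeder or differentiated cells. In these bulk libraries a partial level cannot be told apart from a mix of methylated and unmethylated cells or alleles.

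Reads were thin over these genes. The 53 tested windows had a median of 2.57 calls per CpG and library (0.408 to 8.69), against 6.99 over all tested ends. The median window had no call in any library at 31.5% of its CpGs, against 10.9% of all CpGs. Inside genes shorter than 1000 bp 48.0% of CpGs were never called, against 23.2% in the rest of the same windows. H2bc23, H2ac23 and H2ac24 had 0 calls in all libraries, H4c17 had 2 to 20 and H4c18 had 4 to 40, so these 5 genes of the first chromosome 13 cluster were not tested. No source used here says how reads matching several copies were called, so calls inside the coding sequences of near-identical copies are uncertain. The windows also overlap, since the genes are close: members whose windows touch share calls, and the 58 windows merge into 32 regions.

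Apart from H2ac1 and H2bc1, the histone gene ends were almost free of methylation in all 12 libraries. Of these 51 ends, 30 had a mean level over the 12 libraries under 1%, 19 between 1% and 5%, and only H2bc6 and H4c3 over 5%. The median of the 51 mean levels was 0.696%, and 49 of the 51 stayed under 10% in every library. H2bc6, an H2B gene of the second chromosome 13 cluster, had the highest mean, 6.58%, and the highest single value of the 51, 12.6% in WT EB. The median level over all tested ends was 10.1% in both clones and 9.21% in WT at t=0, and over the 10912 ends with 60 or more CpGs it was 3.45%, 3.56% and 3.08%. Of the tested histone windows 49 belong to that CpG-rich set.

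**Figure D1:**
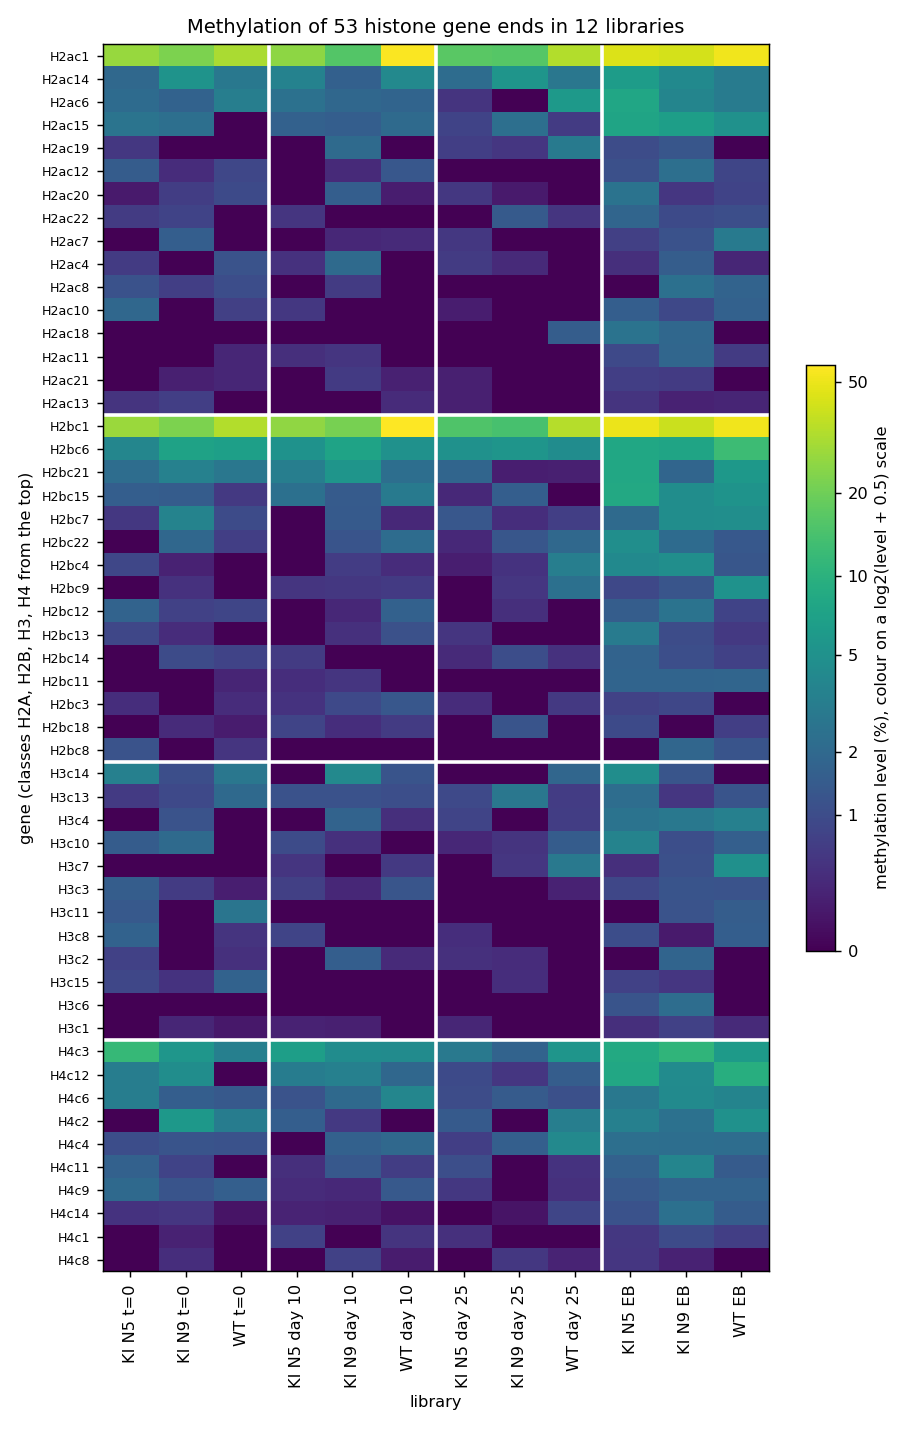
Methylation level (percent, colour on a log2 scale after adding 0.5) of each of the 53 tested histone gene ends (rows, by class and falling mean level) in the 12 libraries (columns, by stage, with both KI clones left of WT). H2ac1 and H2bc1 stand apart from their classes in every library, and most other ends are under 5%.

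H2bc6 was at 3.96% in KI N5 and 7.28% in KI N9 and 6.88% in WT at t=0, at 5.19%, 7.47% and 5.08% at day 10, at 5.10%, 5.43% and 4.53% at day 25, and at 7.94%, 7.55% and 12.6% in EB. Its libraries overlap across stages, and it passed in none of the comparisons. H4c3 was at 11.7%, 5.60% and 3.37% at t=0 and at 6.72%, 4.56% and 4.48% at day 10. The pseudogene H2ac14, the third highest of the 51, ranged from 1.65% to 6.43% over the libraries, and H4c6 from 1.02% to 4.35%. By class, the pooled level at t=0 was 0.925% in KI N5, 0.958% in KI N9 and 0.840% in WT for H2A, and 1.08%, 1.501% and 1.23% for H2B. It was 0.880%, 0.597% and 0.776% for H3, and 1.76%, 1.61% and 0.752% for H4. All 4 classes were lowest in the mean of the clones at day 25 and highest in EB. Windows of different classes overlap and share calls, so the classes are not independent here.

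The germline pair stood apart. At H2bc1 (TH2B, window of 85 CpGs) the level was 28.2% in KI N5 and 22.4% in KI N9, against 33.0% in WT at t=0. At day 10 it was 26.2% and 21.3%, against 57.8%, and at day 25 15.1% and 14.2%, against 33.6%. In EB it was 50.2% and 39.6%, against 52.1%. WT was above both clones at every stage, and the gap was widest at day 10. In both clones the lowest level was at day 25 and the highest in EB.

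At H2ac1 (TH2A, window of 79 CpGs, 75 of them shared with the H2bc1 window) the level was 27.3% and 22.1% in KI N5 and N9 and 31.2% in WT at t=0. It was 25.3% and 15.9%, against 56.1%, at day 10. At day 25 it was 16.8% and 16.2%, against 33.3%, and in EB 45.2% and 42.1%, against 52.4%. The pair is thus 1 region seen from its 2 ends, and the values are not independent. The 95% Wilson interval of the single WT value, which covers counting error only, ran for H2bc1 from 28.3% to 38.0% at t=0, from 51.2% to 64.0% at day 10, from 29.0% to 38.6% at day 25 and from 47.1% to 57.2% in EB. The WT columns deposited for each stage, taken here as lanes of 1 library, gave H2bc1 levels of 47.0% and 64.1% at day 10 and 27.3% and 37.4% at day 25.

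**Figure D2:**
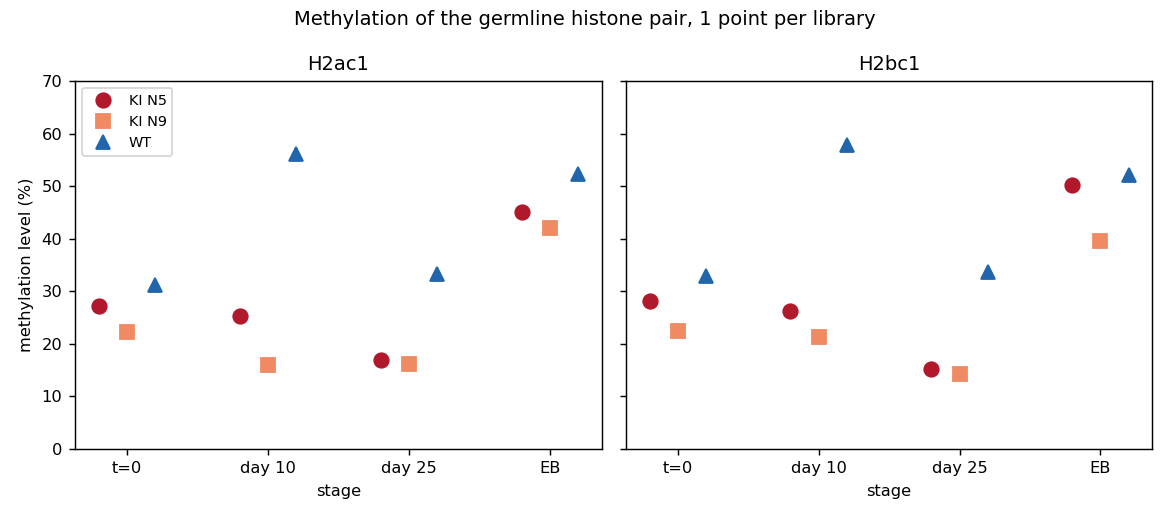
Methylation level (percent, from 0) of H2ac1 and H2bc1 at each stage, 1 point per library, KI N5 and KI N9 left of WT. In both genes WT lies above both clones at every stage, and both clones are highest in EB. The lowest clone values are at day 25, except for KI N9 at H2ac1, which is at 15.9% at day 10 and 16.2% at day 25.

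The methylation of the pair reached its promoters. The 11 CpGs of the promoter stretch were at 15.9% in KI N5 and 16.7% in KI N9 and at 31.2% in WT at t=0. At day 10 they were at 14.3% and 5.26%, against 35.4%. At day 25 they were at 5.26% and 6.38%, against 26.7%, and in EB at 22.2% and 25.0%, against 41.7%. These values rest on 30 to 114 calls per library. Over all stages together, 10 of the 11 CpGs had a level between 8.57% and 34.6% in the KI libraries, and all 11 lay between 25.0% and 47.6% in WT. The exception, 2 bp after the H2ac1 start, had 1 methylated of 38 KI calls (2.63%) and 4 of 12 WT calls (33.3%). At the body of H2ac1 the clones differed from each other, with 38.2% in KI N5 and 13.0% in KI N9 at t=0 (WT 24.5%) and 32.2% and 5.32% at day 10 (WT 58.9%).

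The promoters of the other histone genes were nearly without methylated calls. In the 45 promoters of tested members other than the pair, 76 of 28245 calls over all libraries were methylated, and 13 promoters had none. Those 13 include the promoters of H3c14 and H3c15, which had no call of any kind in any library and so were not measured. The pooled level was between 0.162% (KI N5, day 25) and 0.534% (KI N9, EB) in the 8 KI libraries. In WT it was between 0%, with 0 of 1999 calls at day 25, and 0.388% in EB. A level this low is not told apart here from incomplete conversion or miscalls, since no unmethylated spike-in is used here. Outside the promoters the same windows held 0.853% to 3.31% in the 12 libraries.

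Methylation rose steeply with distance from the start. In the bin from 0 to 250 bp after the start, pooled over members other than the pair, KI N5 was at 0.176%, KI N9 at 0.259% and WT at 0.266% at t=0. In the bin from 1750 to 2000 bp after it they were at 49.8%, 51.01% and 46.6%. At day 25 the near bin was at 0.184% and 0.191% in the clones and 0.124% in WT, and the far bin at 34.1% and 27.6%, against 57.1%. In EB the far bin was at 63.7% and 65.5%, against 58.5%. Stages also differed inside the tested windows. In the bin from 750 to 1000 bp after the start the clones were at 4.58% and 5.06% at t=0 (WT 5.09%), at 2.34% and 2.62% at day 25 (WT 5.46%) and at 9.39% and 8.58% in EB (WT 7.82%).

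**Figure D3:**
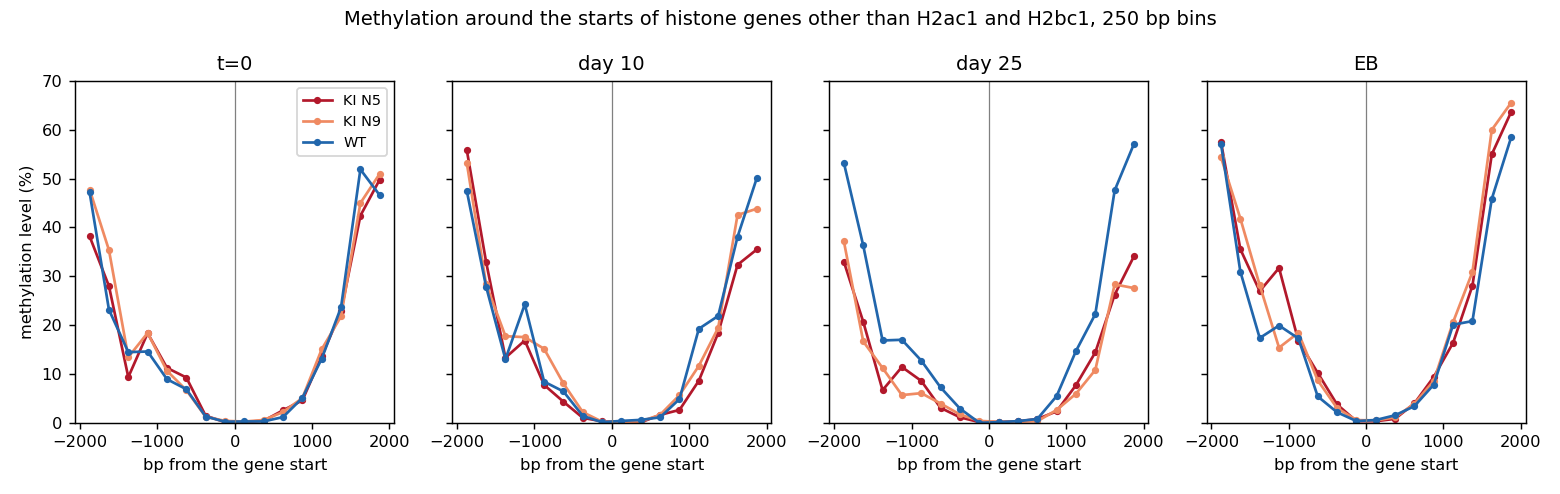
Methylation level (percent) in bins of 250 bp around the starts of histone genes other than H2ac1 and H2bc1, by stage, with 1 line per library (KI N5, KI N9, WT). Levels are under 1% next to the start at day 25 in all 3 libraries, while beyond 1000 bp both KI lines lie below WT at that stage.

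DNA between the genes followed the same stages at much higher levels. In the second chromosome 13 cluster the span ran from the first to the last member other than H2ac1 and H2bc1. The DNA from there to this pair was left out. CpGs of that span more than 2 kb from any member were at 57.5% in KI N5 and 56.1% in KI N9 at t=0, with WT at 51.2%. At day 25 they were at 43.2% and 41.2%, against 57.1% in WT, and in EB at 63.2% and 62.3%, against 58.3%. In the chromosome 3 cluster the day 25 levels were 43.4% and 40.2%, against 58.5%, and in the first chromosome 13 cluster 20.7% and 20.6%, against 29.7%. In each cluster both clones lay below WT at day 25. In EB both lay above WT in the chromosome 13 clusters, and on either side of it (72.0% and 69.4%, against 70.7%) in the chromosome 3 cluster.

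From t=0 to day 10 no histone end was called changed in the clones. The edgeR quasi-likelihood test found 0 of 53 (3 at unadjusted p under 0.05, 0 by limma), against 0.197% of all ends. Of all 20321 ends, 2334 were at unadjusted p under 0.05 (edgeR), and limma called 0. The lowest adjusted p of the members was 0.390 (edgeR). Pooled over the 51 ends other than the pair, the level was 1.10% in KI N5 and 1.47% in KI N9 at day 10, against 1.47% and 1.51% at t=0, and WT had 1.21% and 1.17% at those stages.

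At day 25, 6 of the 53 histone ends were lower than at t=0 in the clones (11.3%), against 40.2% of all ends and 26.5% of CpG-rich ends. None was higher. The 6 were H2bc1, H4c3, H4c12, H2ac6, H3c3 and H2ac12. The pooled level of the 51 other ends was 0.767% and 0.801% in KI N5 and N9 at day 25, against 1.47% and 1.51% at t=0. WT was at 1.28% at day 25 and 1.17% at t=0. The median difference of the 53 ends was -0.46 points, against -3.90 over all ends and -1.46 over CpG-rich ends, from levels that were lower to begin with. On the log2 odds scale the medians were -0.75 for the members and -0.98 for all ends.

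The window of H2bc1 fell by 10.7 points (adjusted p = 0.0325, edgeR), lower in both clones, and did not pass by limma (adjusted p = 0.0782). The gene body of H2bc1 inside it was not lower. That body was at 15.67% and 20.45% in KI N5 and N9 at day 25, against 11.48% and 17.5% at t=0. These values rest on 40 to 134 calls per library. The body of H2ac1, which the window also covers, had a clone mean of 5.848%, against 25.61% at t=0. limma called 8 members lower in this comparison, 5 of them among the 6 of edgeR. Of all 20321 ends it called 4991 lower. H2ac1 differed by -8.18 points and did not pass (adjusted p = 0.0994, edgeR). H4c3, an H4 gene, was at 2.95% and 1.77% in KI N5 and N9 at day 25, against 11.7% and 5.60% at t=0 (adjusted p = 0.00804, edgeR). H4c12, another H4 gene, was at 0.943% and 0.565%, against 3.23% and 4.62% (adjusted p = 0.0141, edgeR). Their methylated calls lay in the flanks: the 300-base promoter of H4c3 had 0 methylated of 53 to 90 calls in the clones at day 25 and of 29 to 68 at t=0.

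H2ac6, an H2A gene, had 2 of 389 and 0 of 191 methylated calls at day 25, against 5 of 235 and 6 of 347 at t=0 (adjusted p = 0.0358, edgeR). Its promoter had no methylated call in any library. H3c3, an H3 gene, had 0 of 592 calls in the clones together at day 25, which allows up to 0.507% (3 counts over the group), against 7 of 630 (1.11%) at t=0. H2ac12, an H2A gene, had 0 of 513, which allows up to 0.585%, against 5 of 512 (0.977%). The adjusted p were 0.0162 for H3c3 and 0.0310 for H2ac12 (edgeR), and each rests on 7 or fewer methylated calls. Fewer members were called with either clone left out at day 25 or with KI N5 left out at t=0. With a window of 500 bp on either side 0 were called. The share of all ends called in these settings is not given here, so the loss is not shown to be particular to the histone ends.

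From day 25 to EB, 28 of the 53 ends were higher in the clones (52.8%), against 74.6% of all ends and 63.0% of CpG-rich ends, and none was lower. They were 8 of 16 H2A, 9 of 15 H2B, 5 of 12 H3 and 6 of 10 H4 ends, with calls shared where windows of different classes overlap. The pooled level of the 51 other ends was 2.74% in KI N5 and 2.44% in KI N9 in EB, against 0.767% and 0.801% at day 25. In WT it was 2.34% in EB and 1.28% at day 25. The median difference over the 53 ends was 1.41 points, against 7.22 over all ends and 2.54 over CpG-rich ends. On the log2 odds scale the order was reversed. There the medians were 2.06 for the members, 1.52 for all ends and 1.30 for CpG-rich ends. Every library of the clones in EB was above every one at day 25 in this pooled level.

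H2bc1 rose by 30.2 points (adjusted p = 8.22e-06, edgeR) and H2ac1 by 27.1 points (adjusted p = 3.2e-05, edgeR), higher in both clones. H4c3 reached 8.58% and 10.7% in KI N5 and N9 in EB, against 2.95% and 1.77% at day 25, a rise of 7.29 points. H4c12 reached 8.22% and 4.43%, against 0.943% and 0.565%, and H2ac6 7.89% and 3.83%, against 0.514% and 0%. H2ac15, an H2A gene, was at 7.55% and 6.67%, against 0.797% and 2.35%, and its divergent partner H2bc15 at 8.26% and 4.70%, against 0.372% and 1.56%. None of these groups overlapped, but the share of all ends without overlap is not given here.

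Among the other large rises H2bc4, the neighbour of H2ac6, was at 4.27% and 4.78%, against 0.246% and 0.497%. H2bc21, an H2B gene on chromosome 3, was at 8.25% in KI N5 and 1.88% in KI N9, against 1.88% and 0.252%. Its clones thus differed widely in EB, and KI N9 in EB was level with KI N5 at day 25. H3c14, an H3 gene of the same cluster, was at 4.62% and 1.25% from 65 and 80 calls, against 0 of 91 and 0 of 93. Of the 28 called ends, the other 18 had differences between 1.04 and 2.64 points.
Many of these rises start from very few methylated calls. In the clones at day 25 together, 8 of the 28 ends had no methylated call and 21 had 5 or fewer. H3c6, for example, had 0 of 391 calls in the clones at day 25, which allows up to 0.767%, and 5 of 300 (1.67%) in EB. When only the 300-base promoters of the members were tested in place of their windows, H2ac1 and H2bc1 were the 2 called of the 40 that passed the filters. Fewer than 28 were called with either clone left out at day 25. The number was 8 with windows of 500 bp and 46 with windows of 2000 bp on either side. The share of all ends called in these settings is not given here. limma called 24 of the 28, and 14201 of all 20321 ends higher. After each library was centred on its median end limma called 0 members, and also 0 of all ends.

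**Figure D4:**
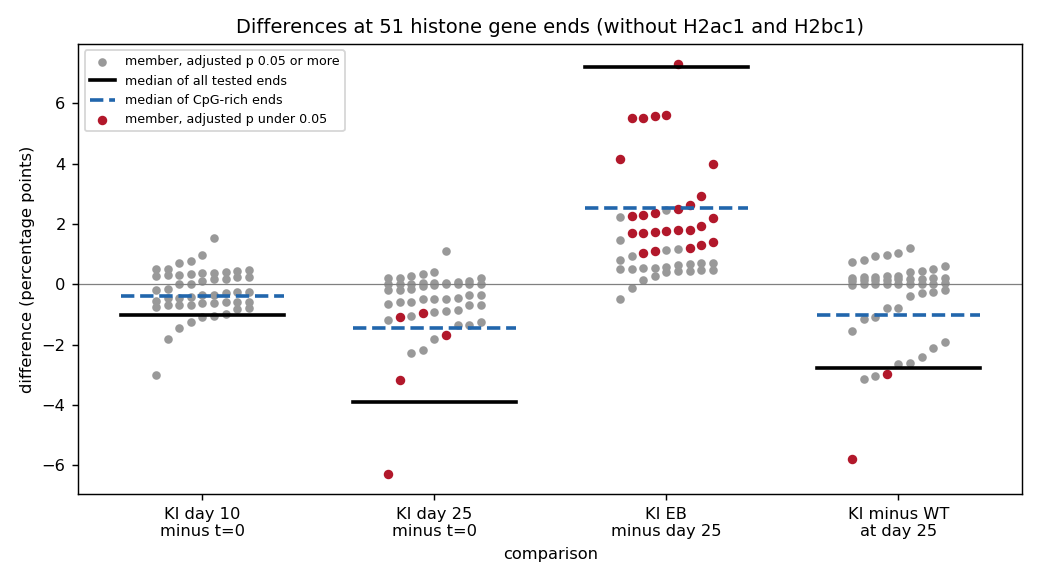
Difference in methylation level (percentage points) at each of the 51 histone gene ends other than H2ac1 and H2bc1 in 4 comparisons, with 1 point per gene. Red points passed an adjusted p of 0.05 (edgeR), the black line is the median of all 20321 tested ends and the dashed blue line that of the 10912 CpG-rich ends. Most members lie nearer to 0 than both lines at day 25 against t=0.

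EB were also set against t=0, which skips the low of day 25. Here 6 of 53 ends were higher (11.3%), against 8.92% of all ends, and none was lower. They were H2bc1, H2ac1, H2bc15, H2bc4, H2bc11 and H2ac11. The pair differed by 19.6 points at H2bc1 (adjusted p = 0.0216, edgeR) and 18.9 at H2ac1 (adjusted p = 0.0247, edgeR). H2bc4 was at 4.27% and 4.78% in EB, against 0.866% and 0.284% at t=0. The neighbouring genes H2bc11 and H2ac11 had 10 of 553 and 8 of 533 methylated calls in the clones in EB. At t=0 they had 0 of 589 and 0 of 585, which allow up to 0.509% and 0.513%. The windows of H2bc11 and H2ac11 overlap and share calls, as do those of the pair, so the 6 ends are not 6 separate regions. H2bc15 passed narrowly (adjusted p = 0.0486, edgeR) and did not pass with the clone as a block (adjusted p = 0.0513, edgeR). limma called 0 of the 6, and also 0 of all 20321 ends. By edgeR fewer were called with either clone left out at t=0, or with KI N5 left out in EB. The share of all ends called in those fits is not given here.

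KI and WT cells were compared at each stage, with 2 libraries against 1. At t=0 the test called 0 of 53 histone ends (edgeR, 5 at unadjusted p under 0.05, 0 by limma), against 0.536% of all ends. At day 10 it called 0 (edgeR, 4 at unadjusted p under 0.05, 0 by limma), against 0.0148% of all ends. Of all 20321 ends, 1871 at t=0 and 1475 at day 10 were at unadjusted p under 0.05 (edgeR), and limma called 0 at both stages. The largest differences of the members at day 10 were those of the pair: H2ac1 was 35.5 points lower in KI (adjusted p = 0.0531, edgeR) and H2bc1 34.0 points lower (adjusted p = 0.0634, edgeR). Only 3 of 20321 ends passed in that comparison. H2ac1 did pass where ends with fewer than 30 calls in a library were left out, and both genes passed with windows of 500 bp and of 2000 bp.

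At day 25, 4 histone ends were lower in KI than in WT (7.55%), against 10.2% of all ends, and none was higher. H2bc1 was 18.9 points lower (adjusted p = 0.0192, edgeR) and H2ac1 16.8 points lower (adjusted p = 0.0408, edgeR), with both clones below WT. KI N9 alone, which shares its flow cell with WT, was at 14.2% for H2bc1 and 16.2% for H2ac1, against 33.6% and 33.3%. H2ac6 had 2 of 389 and 0 of 191 methylated calls in the clones, against 11 of 182 in WT (adjusted p = 0.00429, edgeR). H2bc4 had 1 of 407 and 1 of 201, against 6 of 180 (adjusted p = 0.0364, edgeR). The median difference of the 53 ends was 0 points, against -2.79 over all ends and -1.01 over CpG-rich ends. Genome-wide levels moved with this comparison, since both clones were below WT at day 25, and the part of that shift in the 4 calls was not tested. With either clone left out at day 25 fewer of the 53 ends were called, and the share of all ends in those fits is not given here. limma called 1, H2ac6, against 249 of all 20321 ends lower. The pair did not pass by limma (adjusted p = 0.0963 for H2bc1 and 0.129 for H2ac1).

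In EB the test called 0 of 53 between KI and WT (edgeR, 8 at unadjusted p under 0.05, 0 by limma), against 0.0689% of all ends. Of all 20321 ends, 1778 were at unadjusted p under 0.05 (edgeR), and limma called 3 higher. The EB of WT carry a longer time of aggregation in their label, which cannot be told apart from genotype there. The change between stages was then compared between KI and WT. From t=0 to day 10 the difference in change was called at 0 of 53 ends (edgeR, 10 at unadjusted p under 0.05, 0 by limma), against 0.0344% of all ends, although the pair had the largest values, -28.9 points at H2ac1 and -26.4 at H2bc1. From t=0 to day 25 it was called at 0 (edgeR, 8 at unadjusted p under 0.05, 0 by limma), against 2.11% of all ends. Of all 20321 ends, 1446 for day 10 and 5180 for day 25 were at unadjusted p under 0.05 (edgeR), and limma called 0 in both.

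From day 25 to EB the change was larger in KI than in WT at 2 ends (3.77%), against 6.07% of all ends. These were H2ac6, with a difference of 8.51 points (adjusted p = 0.00787, edgeR), and H2bc4, with 6.21 points (adjusted p = 0.0176, edgeR). H2bc4 was at 4.27% and 4.78% in KI N5 and N9 and 1.28% in WT in EB, and at 0.246% and 0.497%, against 3.33%, at day 25. The windows of these neighbours overlap, and part of the signal is 1 stretch of 22 CpGs, 250 to 500 bp upstream of the H2ac6 start. In that stretch 6 calls were methylated in each of KI N5 EB, KI N9 EB and WT at day 25, on 6 different CpGs with 1 methylated call each. All other libraries had none there, in 20 to 89 calls. Calls on neighbouring CpGs of 1 read pair are not independent, and the table does not say which calls share a read. limma called 0 of the 53, against 52 of all 20321 ends higher. By edgeR fewer than these 2 were called without KI N5 at day 25, and the share of all ends in that fit is not given here.

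Linker histones of the H1 family bind the DNA between nucleosomes, and 6 of their genes lie among the core histone genes. H1f6, the testis form H1t, was partly methylated, at 37.1% and 32.9% in KI N5 and N9 at t=0 (WT 41.5%), 21.01% and 28.9% at day 10 (WT 33.7%), 27.2% and 22.1% at day 25 (WT 46.5%) and 57.5% and 45.3% in EB (WT 43.6%). The other 5 linker genes were at or under 4.02% in every library. At day 25, 1 of 6 was lower in KI than at t=0 (H1f1, adjusted p = 0.0189, edgeR), against 40.2% of all ends. In EB 3 of 6 were higher than at day 25 (H1f6, H1f1 and H1f5), against 74.6% of all ends. H1f6 rose by 26.7 points there (adjusted p = 0.000159, edgeR). H1f6 and H1f1 were lower in KI than in WT at day 25 by 21.8 and 3.73 points (adjusted p = 0.0374 and 0.0180, edgeR).

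Other histone genes and the factors that serve the clusters are read against the same shares, 40.2% of all ends lower in KI at day 25 than at t=0 and 74.6% higher in EB than at day 25. Of 11 genes listed as replacement variants, many of which are also made outside S phase, 3 were lower in KI at day 25 than at t=0. In EB 8 were higher than at day 25. The 11 listed genes, called or not, include H3f3b, which encodes H3.3, Macroh2a1, Cenpa, H2ax and the linker histone genes H1f0 and H1f10. The H3f3b window held only 12 CpGs and was at 18.2% to 68.1% over the libraries. Of 17 transcription and mRNA processing factors 5 were lower at day 25 and 12 higher in EB. The end of Npat, the coactivator of these genes, was under 1% in every library, as was that of H3f3a. Of 8 histone chaperones 1 was lower at day 25 (Chaf1b, a subunit of chromatin assembly factor 1) and 4 higher in EB.

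Genes that lie between the histone genes without being members were also counted. Of 15 tested neighbours, which include the 6 linker histones, 7 were lower in KI at day 25 than at t=0, against 40.2% of all ends, and 12 higher in EB than at day 25, against 74.6%. Trim38, an E3 ubiquitin ligase, was at 31.5% and 35.8% in KI N5 and N9 at day 25, against 65.6% and 67.7% at t=0 (adjusted p = 0.000288, edgeR). It was at 75.7% and 72.9% in EB (adjusted p = 8.94e-07 against day 25, edgeR), and at day 25 it was 28.9 points lower in KI than in WT (adjusted p = 0.00719, edgeR). The phosphate transporter gene Slc17a2 was at 62.3% and 63.1% at day 25, against 83.2% and 79.3% at t=0 (adjusted p = 0.00391, edgeR). The difference between neighbours and members was not tested.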

How the data were processed

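The data are oxidative bisulfite methylomes of 12 libraries. Per the labels' protocols, a TrueMethyl kit was used for oxidation and conversion, followed by paired-end sequencing. The submitters' processing notes list build mm10 and the tools BWA and Picard 1.91. No caller, and no rule for reads that match several gene copies, is given in the sources used here. Per the file headers, the authors deposited for each of 21875444 CpGs the whole-number counts of methylated calls and the total coverage, without normalization. Each WT stage has 2 columns of each kind. They were added up as lanes of 1 library, since the titles share index and flow cell, but the headers do not say which lane is which. As separate libraries they would give WT an n of 2. Of the value columns, 32 were used and 0 left over.

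Levels are methylated calls over all calls, in percent. Gene positions came from the RefSeq table (GRCm38.p6). Windows reached 1000 bp to each side of the CpG-richer gene end and needed 5 CpGs and 10 calls per library. Methylated and unmethylated counts of 20321 ends entered edgeR 4.0.16 (R 4.3.3) and its quasi-likelihood F test. The model had 8 conditions (genotype by stage), leaving 4 residual degrees of freedom, with a common dispersion of 0.024. Each of 11 comparisons had its own Benjamini-Hochberg adjustment, with a threshold of 0.05. The spread of the single WT library is taken to equal that of the clones. The fit was tested on simulated data. The simulation changed only ends above a set level in KI at t=0, so it does not cover ends with few methylated calls. limma 3.58.1 on logit values (offset of 0.5 calls) was an alternative. No source says that libraries came from separate cultures, and p-values measure only the spread between these libraries. An exact permutation test of 2 libraries against 2 cannot go below p = 0.333. Intervals and floors (3 counts) cover counting error only, since PCR copies are not independent molecules.

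N5 and N9 pair across stages because each is 1 cell line. Over all ends the N5 minus N9 differences of 2 stages correlated with r between 0.000672 and 0.0332. KI against WT could not be fitted with a clone block. The genes and lists were chosen with earlier results of these data known. Genes named are the pair H2ac1 and H2bc1, the 10 with the highest mean level, those called in each comparison (up to 10 by size in each direction) and up to 4 of each other list by lowest p. The other genes named were chosen after their values were seen. RefSeq promoters matched 52 of the 58 genes, and all 663 of their CpGs fell on a position of the table.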

Additional observations from a re-analysis of the deposited data

Results flagged for a closer look

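H2ac6 differed between KI and WT in its change from day 25 to EB by 8.51 points, and H2bc4 by 6.21 points, in the interaction test of edgeR (adjusted p = 0.00787 and 0.0176). In both clones the level was higher in EB than at day 25, and in the single WT library it was lower. For H2ac6 the calls were 18 of 228 and 11 of 287 in KI N5 and N9 and 7 of 223 in WT in EB, and 2 of 389 and 0 of 191, against 11 of 182, at day 25. In WT at day 25 all 6 methylated calls of the H2bc4 window lay on 6 CpGs within 59 bp, 1 call each. The part of single read pairs, of near-identical gene copies and of the longer aggregation of the WT EB in this difference was not tested.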

How the results depend on the processing

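Counts of called histone ends are given in the order day 25 against t=0, EB against day 25, EB against t=0, KI against WT at day 25, and the KI minus WT change from day 25 to EB, where they were 6, 28, 6, 4 and 2 of 53. Outside limma, the number of all ends called in the same setting is not given here. A count that moves is therefore not shown to be particular to the histone ends. limma gave 8 and 24 in the first 2 and moved the last 3 to 0, 1 and 0. Of all 20321 ends, limma called 0, 249 lower and 52 higher in those last 3. Centring on the median end moved all 5 to 0. That centring takes out the shift of all ends, whose median was -0.98 on the log2 odds scale at day 25 against t=0 and 1.52 in EB against day 25, and limma then called 0 of 20321 ends in both. Windows of 500 bp moved the first 3 to 0, 8 and 2. Windows of 2000 bp gave 24 and 46 in the first 2, 8 and 5 in the last 2, and 6 for the KI minus WT change from t=0 to day 25. The other gene end gave 15 at day 25 against t=0. Merging overlapping windows into regions gave 17, 2 and 2 regions in EB against day 25, EB against t=0 and KI against WT at day 25. The regions are fewer than the 53 ends, so these counts cannot be read against 53. Promoters of 300 bases, an alternative chosen after seeing the data, gave 1, 2, 0, 1 and 0, also out of fewer than 53. KI against WT at day 10 had 0 calls, and 1 with at least 30 calls per library, 2 with windows of 500 bp, 2 with windows of 2000 bp and 1 at the other gene end.

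Leaving out 1 library at a time gave 0 to 7, 17 to 30, 0 to 6, 1 to 4 and 1 to 2 calls in these comparisons, and 0 to 1 for KI against WT at day 10. In the other 5 comparisons it gave 0. Pooled over all 53 tested ends, H2ac1 and H2bc1 included, the clones changed by -0.156 points from t=0 to day 10 (-0.904 with windows of 2000 bp, -0.346 as a mean of genes, -0.253 to -0.0595 without 1 library). From t=0 to day 25 they changed by -1.05 (-0.365 over CpGs with 5 calls in every library, -0.430 and -3.59 with windows of 500 and 2000 bp, -0.955 as a mean of genes, -1.08 to -1.03 without 1 library). From day 25 to EB it was 2.52 (1.70, 1.28 and 6.08 with those CpGs and windows, 2.24 to 2.80 without 1 library). H2bc13 (-0.229) and H2bc22 (-0.268) turned with windows of 500 bp in EB against day 25, H2bc11 with 2000 bp (-0.108, and -0.332 against t=0), and H4c6 in its promoter (-0.718). The cause was not tested in these cases.

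The clone as a replicate block gave 6, 28 and 5 calls in the first 3 comparisons and 2 in the last. It changed no call other than that of H2bc15 in EB against t=0. With a flow cell term added it gave 7, 29, 7 and 2. Depth is 1 limit: median coverage was 2.57 calls per CpG, and many ends have fewer than 5 methylated calls.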
